A study of Rattus norvegicus with 6 samples.

Results

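Cholesterol and fatty acid synthesis were followed through 35 genes in cultured nucleus pulposus cells of the rat, which come from the soft centre of the intervertebral disc. The genes were chosen by name to cover the steps of the pathways in order: 7 genes of the mevalonate pathway, 11 genes from squalene to cholesterol, 6 genes of SREBP control and sterol transport, 8 genes of fatty acid synthesis and desaturation, and 3 genes of efflux and esterification. All 35 were found once each among 32623 listed genes, and all 35 had enough counts to be among the 14342 genes tested. The cells came, per the labels, from lumbar discs of male rats (Sprague-Dawley, aged 4 weeks) and were used at passage 3 to 5. Both groups were cultured with 10% serum and 5% CO2. One group had received a lentivirus with a short hairpin RNA against the clock gene Bmal1 (shBmal1, 3 libraries) and the other a negative control hairpin lentivirus (shNC, 3 libraries), both for 72 hours, so that both groups had received a virus. The sources used here do not give how many hairpin sequences, animals or cultures lie behind the libraries. The p-values therefore cover the spread between these libraries alone, and that spread may be technical.

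Cells build cholesterol from acetyl-CoA through mevalonate, isoprenoids and squalene, and build fatty acids from the same acetyl-CoA through malonyl-CoA. The transcription factors SREBP1 and SREBP2 switch on both pathways: they sit in the endoplasmic reticulum membrane with the escort protein SCAP, are held there by INSIG1 and INSIG2 when sterols are plentiful, and travel to the Golgi for cleavage when sterols are scarce. Excess cholesterol is exported by ABC transporters, which are targets of the oxysterol receptors LXR, or stored as esters. BMAL1 forms with CLOCK the activator of the circadian clock, which binds E-box sequences, and lipid synthesis genes are known to cycle in mouse liver.

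Arntl, the symbol for Bmal1, had 27.4, 29.7 and 31.7 CPM (library-size-scaled counts, with TMM factors) in shNC and 2.16, 4.24 and 2.07 CPM in shBmal1, or 9.55% of the control level (exact two-sided permutation test, p = 0.1, the smallest that 3 against 3 libraries allow). The shNC libraries held 44043803 to 49783710 counts and the shBmal1 libraries 8773762 to 11679587, and mitochondrial rRNA took 0.0330 to 0.0602% of counts in shNC and 0.722 to 1.31% in shBmal1. Of 13 nucleus pulposus markers, 1 (Tbxt) had no count in any library, and the summed level of the list was 2304 to 2655 FPKM (the authors' level per transcript length and library size) in shNC and 373 to 400 FPKM in shBmal1. Most of that sum was Mgp, at 2199 FPKM in shNC and 292 FPKM in shBmal1; of the 11 markers tested, 5 were lower, 2 (Foxf1 and Ca3) higher and 4, among them Sox9, not called. Of 8 adipocyte markers, Plin1, Fabp4 and Cfd had no count in any library, and the summed level was 1.35 to 1.68 FPKM in shNC and 4.84 to 6.50 FPKM in shBmal1. Adipoq, in that list, had 0 counts in every shNC library and 35, 61 and 76 counts in the shBmal1 libraries. Macrophage markers summed to 0.493 to 1.26 FPKM in shNC and 3.37 to 7.49 FPKM in shBmal1, endothelial markers to 0.0519 to 0.312 and 1.15 to 1.68 FPKM, hepatocyte markers to 0 to 0.166 and 0.566 to 1.93 FPKM, and erythroid markers to 0 to 0.240 and 0 to 0.175 FPKM. C1qb and Ttr had no count in any library. Smooth muscle markers summed to 1062 to 1148 FPKM in shNC and 54.1 to 85.7 FPKM in shBmal1, nearly all of it Acta2, and of these 4 markers Acta2 and Cnn1 were lower and Des and Myh11 higher. The part of depth, mitochondrial rRNA and these marker levels in the results below was not tested. In bulk RNA, fewer cells of a type and less RNA per cell cannot be told apart.

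The pathways did not move as one block. At an adjusted p under 0.05 (edgeR's quasi-likelihood test, Benjamini-Hochberg over all tested genes), 18 of the 35 genes were lower in shBmal1, 9 were higher and 8 did not pass the test. Over all tested genes 71.3% passed, with 36% higher and 35.3% lower, so the share of these genes that passed, 77.1%, was close to that background. The median log2 fold change was −0.62 for the 35 genes and −0.01 for all tested genes. A change of at least 2-fold was called in 15 of the 35 genes, against 47.3% of all tested genes (25.4% higher and 21.9% lower). The ranges of the libraries did not overlap between the groups for 27 of the 35 genes, against 77.3% of all tested genes. Both SREBP genes, SCAP and 6 of 8 fatty acid genes fell, whereas genes of sterol synthesis moved in both directions, with 5 higher, 8 lower and 5 not passing. The share of sterol synthesis genes that passed, 72.2%, was close to the 71.3% of all tested genes, which also moved in both directions.

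**Figure D1:**
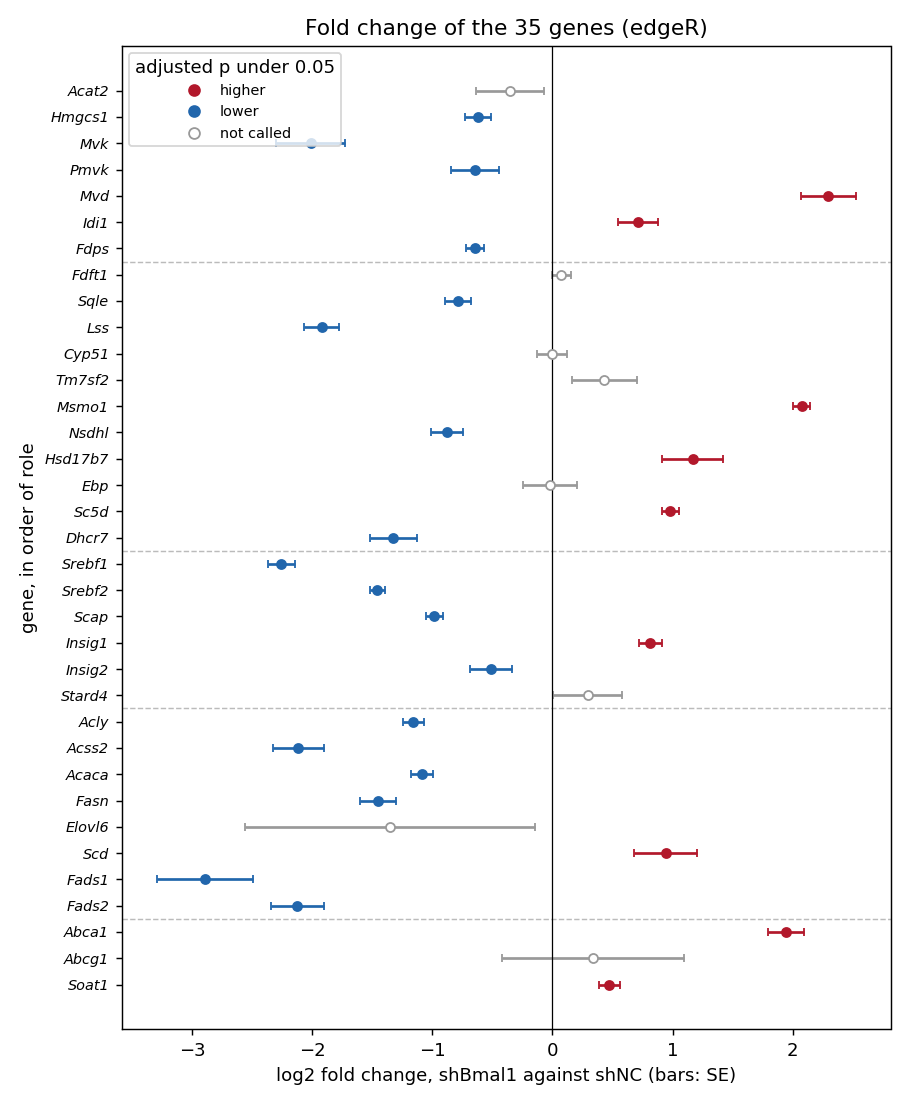
Log2 fold change of each of the 35 genes in shBmal1 against shNC (x axis) in order of role (y axis, dashed lines between the role groups), with bars for the standard error. Filled points passed an adjusted p under 0.05 in edgeR. Values ran from −2.89 for Fads1 to 2.30 for Mvd.

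Promoter windows were read to show what letters stand at the starts of genes that moved apart. RefSeq windows (build GRCr8, 250 bases before to 50 after the gene start) were matched by symbol for 27 of the 35 genes, Srebf1 having 2 windows; Pmvk, Fdft1, Sqle, Stard4, Acaca, Fasn, Elovl6 and Abcg1 had no entry. Both strands were searched. The E-box CACGTG was found in the windows of Insig1, Sc5d, Abca1 and Scap, or 14.8% of the 27 genes, against 8.95% of 10623 windows of tested protein-coding genes. Of those 4 genes, 3 rose and Scap fell. The letters CCAAT, the core of the NF-Y site, were found in 20 of 27 genes, or 74.1% against 37.2%, and these 20 genes included 7 that rose, 11 that fell and 2 that did not pass. The GC box GGGCGG was found in 23 of 27 genes, or 85.2% against 61.1%. The sterol element core TCACNCCAC was in none of the 27 genes and in 1.08% of windows of tested protein-coding genes. These exact letters are so rare that their absence from 27 genes does not show that the genes lack sterol elements. A match is a description of these letters alone.

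The 7 windows printed are those of the 4 genes with CACGTG, of Mvd and Msmo1, which rose most among the sterol synthesis genes, and of Mvk, which fell most. They lie at chr19:67414925-67415224 (Mvd, reverse strand), chr16:29746863-29747162 (Msmo1, forward strand), chr12:47819454-47819753 (Mvk, reverse strand), chr8:51538228-51538527 (Sc5d, reverse strand), chr4:8057720-8058019 (Insig1, reverse strand), chr8:119184188-119184487 (Scap, forward strand) and chr5:72596424-72596723 (Abca1, reverse strand). For Insig1 the deposited data give the forward strand (chromosome 4, 342302 to 350515, build not stated), against the reverse strand of its window. The other printed genes have the same strand in both sources, and the reason for the difference was not tested. Capitals mark CACGTG and CCAAT, the latter also as ATTGG where it reads on the other strand.
Mvd: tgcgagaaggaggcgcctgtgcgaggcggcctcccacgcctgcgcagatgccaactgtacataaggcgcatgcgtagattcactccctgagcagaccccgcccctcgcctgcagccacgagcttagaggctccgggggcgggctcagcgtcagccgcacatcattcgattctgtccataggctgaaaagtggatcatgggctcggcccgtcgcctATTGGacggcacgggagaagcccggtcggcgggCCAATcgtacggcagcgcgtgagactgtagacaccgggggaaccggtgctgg
Msmo1: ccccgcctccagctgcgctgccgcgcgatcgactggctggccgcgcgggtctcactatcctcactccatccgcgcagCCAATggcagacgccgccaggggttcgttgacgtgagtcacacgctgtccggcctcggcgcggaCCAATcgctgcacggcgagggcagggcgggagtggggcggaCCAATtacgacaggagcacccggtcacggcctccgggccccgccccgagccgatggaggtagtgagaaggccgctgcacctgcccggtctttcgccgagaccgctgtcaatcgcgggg
Mvk: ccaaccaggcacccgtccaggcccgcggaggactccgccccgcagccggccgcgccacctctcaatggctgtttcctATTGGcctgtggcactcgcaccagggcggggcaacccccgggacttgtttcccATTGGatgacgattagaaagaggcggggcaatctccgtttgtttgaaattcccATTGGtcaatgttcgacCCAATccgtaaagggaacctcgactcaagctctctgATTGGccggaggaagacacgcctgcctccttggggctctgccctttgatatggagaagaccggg
Sc5d: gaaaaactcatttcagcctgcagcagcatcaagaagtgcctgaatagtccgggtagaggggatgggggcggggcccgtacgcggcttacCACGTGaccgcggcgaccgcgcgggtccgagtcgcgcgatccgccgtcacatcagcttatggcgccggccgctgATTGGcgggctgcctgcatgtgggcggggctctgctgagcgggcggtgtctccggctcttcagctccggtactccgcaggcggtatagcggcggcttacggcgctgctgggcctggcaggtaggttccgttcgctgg
Insig1: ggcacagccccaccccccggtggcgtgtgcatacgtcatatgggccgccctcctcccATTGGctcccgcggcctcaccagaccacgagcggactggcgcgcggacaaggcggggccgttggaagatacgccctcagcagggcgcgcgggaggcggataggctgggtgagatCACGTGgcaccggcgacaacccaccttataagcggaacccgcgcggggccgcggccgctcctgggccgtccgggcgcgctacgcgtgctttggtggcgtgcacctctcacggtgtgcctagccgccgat
Scap: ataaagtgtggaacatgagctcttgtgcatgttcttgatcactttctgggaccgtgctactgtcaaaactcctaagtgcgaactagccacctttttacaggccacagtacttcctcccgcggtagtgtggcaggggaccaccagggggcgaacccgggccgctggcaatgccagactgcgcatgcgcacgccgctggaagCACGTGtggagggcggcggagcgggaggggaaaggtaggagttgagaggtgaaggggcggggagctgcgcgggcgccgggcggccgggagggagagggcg
Abca1: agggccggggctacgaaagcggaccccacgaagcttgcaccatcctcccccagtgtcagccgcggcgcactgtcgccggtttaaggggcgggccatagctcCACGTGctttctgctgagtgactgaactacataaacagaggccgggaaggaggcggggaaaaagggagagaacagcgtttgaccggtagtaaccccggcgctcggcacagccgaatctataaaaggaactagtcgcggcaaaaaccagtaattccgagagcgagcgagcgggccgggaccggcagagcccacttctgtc
Mvd held 2 CCAAT matches, Msmo1 3 and Mvk 5, so that CCAAT stood in both of the sterol synthesis genes that rose most and in the one that fell most.

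**Figure D2:**
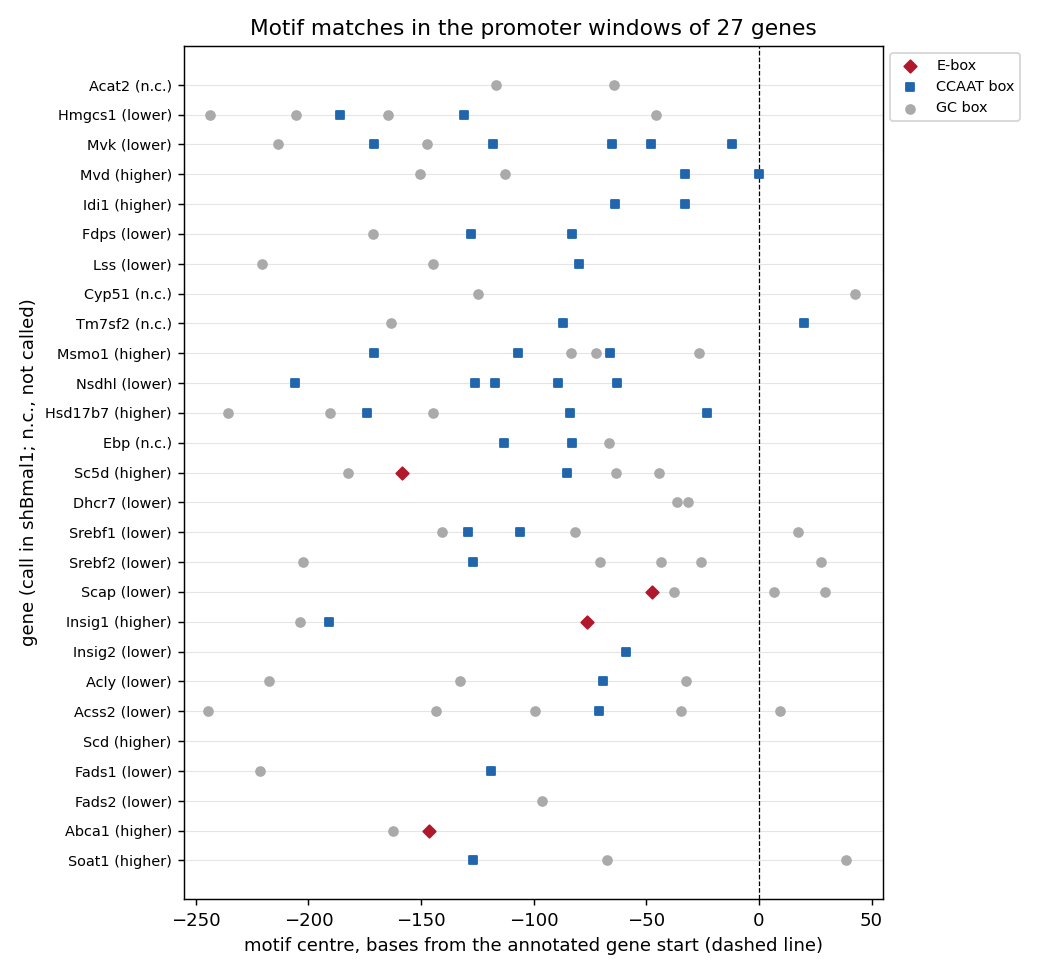
Position of each motif match (x axis, bases from the annotated gene start) in the promoter windows of 27 genes (y axis, with the call of the gene in shBmal1), for 1 window per gene. CCAAT matches stand in genes that rose and in genes that fell, and the E-box stands in 4 genes.

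The mevalonate pathway turns acetyl-CoA into farnesyl diphosphate. Mvd, which encodes the decarboxylase that makes isopentenyl diphosphate (chromosome 19, 55258905 to 55268951, reverse strand; which build these coordinates of the table use is not stated), had 16.2, 17.0 and 13.9 CPM in shNC and 107.8, 60.3 and 64.2 CPM in shBmal1. All 3 shBmal1 libraries were above all shNC libraries, and replicate 1 stood well above the other two. The log2 fold change was 2.30 ± 0.23 (SE; adjusted p = 4.33e-05, edgeR), and 1.96 without shBmal1 replicate 1.

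Mvk, which encodes mevalonate kinase and acts before Mvd in the same pathway, went the other way, from 8.80, 9.09 and 7.34 CPM in shNC to 1.51, 1.96 and 2.73 CPM in shBmal1 (log2 fold change −2.01 ± 0.29, SE; adjusted p = 0.000369, edgeR). These shBmal1 values rest on 14, 24 and 33 counts. Per length, the FPKM ratio of Mvd to Mvk stood at 1.29, 1.31 and 1.32 in the shNC libraries and at 50.9, 22.3 and 16.7 in the shBmal1 libraries, with no overlap. The pair was chosen for its opposite changes, so the ratio is a description.

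The enzymes on either side moved less. Hmgcs1, the synthase that commits acetyl units to the pathway, fell from 48.5, 53.3 and 53.4 CPM to 36.7, 35.6 and 29.0 CPM. Fdps, which makes farnesyl diphosphate, fell by 0.64 on the log2 scale, from 83.7 ± 2.67 to 53.6 ± 3.39 CPM (SD, n = 3 per group). The groups were separate for both genes. Pmvk, which encodes phosphomevalonate kinase, fell by 0.65 from 10.5 ± 1.22 CPM, but its call was lost without shNC replicate 3 (adjusted p = 0.0748, edgeR). Idi1, the isomerase after Mvd, rose from 11.7, 11.6 and 12.1 CPM to 23.6, 18.1 and 16.3 CPM (log2 change 0.71). Acat2, which condenses the first acetyl-CoA units, had overlapping groups at 9.64 ± 1.27 and 7.58 ± 2.71 CPM and did not pass (adjusted p = 0.295, edgeR). A similar gene, Acat2l1, is listed beside it, so its counts are uncertain where reads could be split. In all, 4 of the 7 genes of this arm fell and 2 rose, and their median was −0.62. The share called was 85.7%, against 71.3% of all tested genes.

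From squalene to cholesterol, 4 of 11 genes fell, 3 rose and 4 did not pass, and the median was −0.00. The share called was 63.6%, against 71.3% of all tested genes (36% higher and 35.3% lower). Msmo1 (chromosome 16, 26859397 to 26875973, forward strand) encodes the methylsterol monooxygenase that removes the C4 methyl groups. It had 75.7, 73.4 and 78.7 CPM in shNC and 302, 316 and 341 CPM in shBmal1, with tight and separate groups (log2 fold change 2.07 ± 0.07, SE; adjusted p = 1.54e-07, edgeR). Hsd17b7 and Nsdhl encode enzymes that act with MSMO1 in the same demethylation, yet Hsd17b7 rose from 6.98, 6.91 and 7.72 CPM to 13.3, 12.2 and 22.9 CPM while Nsdhl fell from 22.1 ± 1.14 to 12.0 ± 1.39 CPM. Hsd17b7 lies wholly across from LOC100366054 on the other strand, and no source used here says whether strand was used in counting.

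Lss, which encodes lanosterol synthase and closes the sterol ring, fell from 65.2, 77.1 and 69.9 CPM to 22.4, 15.3 and 18.5 CPM (log2 change −1.92 ± 0.14, SE; adjusted p = 8.95e-06, edgeR). Dhcr7, a reductase at the end of the pathway, fell from 12.7, 14.6 and 10.7 CPM to 4.85, 4.82 and 5.46 CPM. The groups of both genes were separate. Sqle, the rate-limiting squalene epoxidase, fell by 0.79 on the log2 scale from 48.4 ± 1.89 to 28.0 ± 3.52 CPM. Sc5d, the sterol C5-desaturase that acts just before Dhcr7, rose from 40.6, 39.4 and 41.6 CPM to 77.7, 78.8 and 83.0 CPM (log2 change 0.98 ± 0.07, SE), and its window is one of those with CACGTG.

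The genes at some steps could not be separated between the groups. Cyp51, the lanosterol demethylase, had 90.5, 95.6 and 100.03 CPM in shNC and 76.5, 109.7 and 98.6 CPM in shBmal1. Its mean was 95.4 and 94.9 CPM, and the shBmal1 libraries spread to both sides of the shNC libraries. Fdft1, which encodes squalene synthase, had 34.5 ± 1.10 and 36.3 ± 0.80 CPM, and Ebp, a sterol isomerase, had 7.29 ± 1.14 and 7.19 ± 1.16 CPM (SD, n = 3). Tm7sf2, a sterol reductase, had 6.11 ± 0.93 and 8.26 ± 2.34 CPM and passed only without shBmal1 replicate 2 (adjusted p = 0.0419, edgeR). Vps51 overlaps Tm7sf2 by 1066 bases on the same strand, with 21.8 CPM in shNC and a log2 fold change of 0.55. The counts of Tm7sf2 are therefore uncertain where reads could be split. Missing the threshold does not show that these 4 genes were unchanged.

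**Figure D3:**
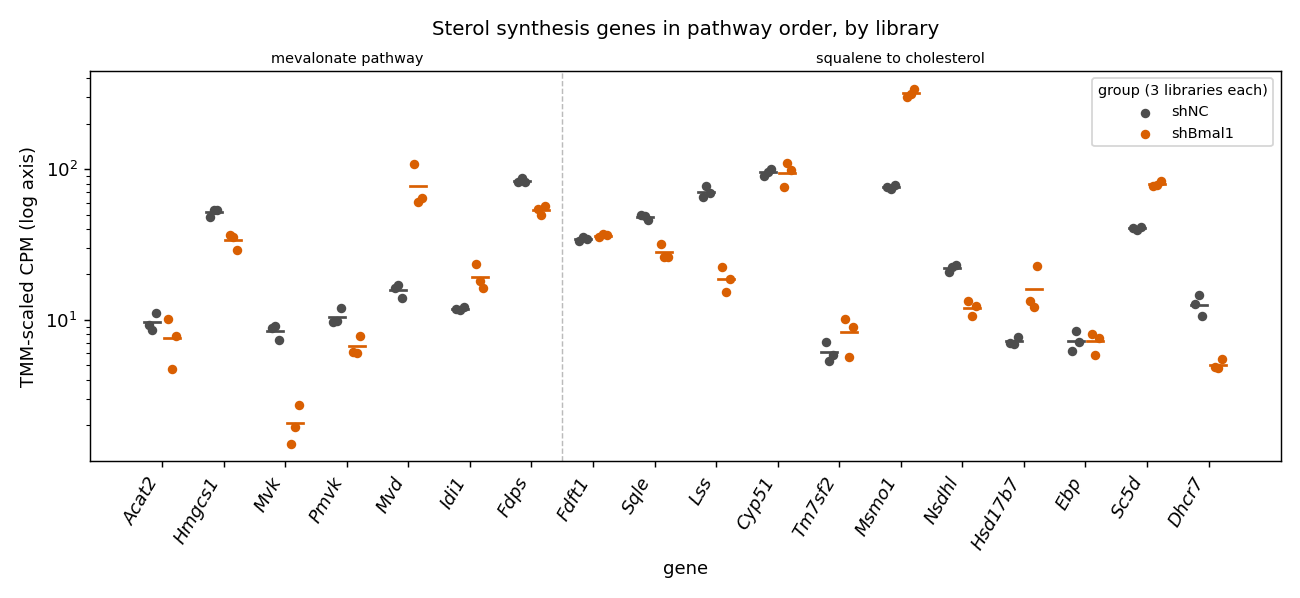
TMM-scaled CPM (log y axis) of the 18 sterol synthesis genes in pathway order (x axis), with 1 point per library and a line at the group mean, for 3 shNC and 3 shBmal1 libraries. Msmo1, Mvd and Sc5d stand higher in all shBmal1 libraries, Mvk, Lss and Dhcr7 lower, and Cyp51 and Ebp overlap.

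Compared per length, Msmo1 was the most abundant of the 35 transcripts in both groups, at 37.8 ± 1.58 FPKM in shNC and 172 ± 11.9 FPKM in shBmal1 (SD, n = 3). In shNC it stood apart from Acly, the next gene, at 33.1 ± 0.67 FPKM, and in shBmal1 from Soat1 at 46.0 ± 5.20 FPKM. Mvd moved in this order from rank 19 to rank 3, while Srebf1 moved from rank 8 to rank 19 and Fads1 from rank 17 to rank 32. Of 34 pairs of neighbours in the order, 11 were separate in shNC and 6 in shBmal1, so most neighbouring ranks did not differ beyond the spread between libraries. Msmo1 made up 18.7, 17.4 and 18.8% of the summed FPKM of the 18 sterol synthesis genes in shNC and 44.8, 50.3 and 50.7% in shBmal1. That sum was 206 ± 6.31 FPKM in shNC and 354 ± 15.4 FPKM in shBmal1. Without Msmo1 and Mvd it was 160.2 ± 6.02 and 136.8 ± 5.07 FPKM, so the higher sum lay in those 2 genes.

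Of the 6 genes of SREBP control and sterol transport, 4 fell, 1 rose and 1 did not pass, with a median log2 fold change of −0.75. The share called was 83.3%, against 71.3% of all tested genes. Srebf1, which encodes SREBP1 (chromosome 10, 46570996 to 46593009, reverse strand), had 117, 100.1 and 104 CPM in shNC and 25.8, 21.1 and 20.5 CPM in shBmal1 (log2 fold change −2.26 ± 0.11, SE; adjusted p = 9.89e-07, edgeR). Rai1, on the other strand, overlaps it by 588 bases and had a log2 fold change of −2.82. Srebf2, which encodes SREBP2, the main activator of sterol synthesis, had 125, 124 and 128 CPM in shNC and 46.0, 46.7 and 45.0 CPM in shBmal1 (−1.46 ± 0.06). Scap, whose window is also one of those with CACGTG, fell from 148, 134 and 142 CPM to 67.7, 71.9 and 74.6 CPM (−0.99). For all 3 genes every shBmal1 library was below every shNC library. The FPKM ratio of Srebf1 to Srebf2 stood at 1.05, 0.911 and 0.919 in the shNC libraries and at 0.633, 0.511 and 0.514 in the shBmal1 libraries, so Srebf1 was relatively lower in all 3 shBmal1 libraries (exact two-sided permutation test, p = 0.1, the smallest possible).

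The retention proteins moved apart. Insig1, itself a classic SREBP target, rose from 57.0, 51.9 and 54.6 CPM to 107.00, 84.6 and 96.3 CPM (log2 change 0.82 ± 0.10, SE; adjusted p = 0.000133, edgeR). The window of Insig1 also holds CACGTG. Insig2, which is less dependent on SREBP, had 11.9, 10.1 and 11.2 CPM in shNC and 7.33, 8.73 and 7.12 CPM in shBmal1. Its groups were separate, but the call (log2 fold change −0.51; adjusted p = 0.0309, edgeR) was lost without shNC replicate 1 or 3 or shBmal1 replicate 3 (adjusted p = 0.0899, 0.0721 and 0.0532, edgeR). It was also lost with DESeq2, with a replicate block and at equal depth (adjusted p = 0.0525, 0.0622 and 0.151). The FPKM ratio of Insig1 to Insig2 stood at 1.96, 2.12 and 2.01 in the shNC libraries and at 5.98, 3.99 and 5.57 in the shBmal1 libraries, without overlap. Stard4, which carries sterol between membranes, was low in both groups at 3.65 ± 0.30 and 4.49 ± 1.17 CPM and did not pass (adjusted p = 0.386, edgeR).

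Fatty acid synthesis genes were lower in 6 of 8, higher in 1, and not called in 1, with a median log2 fold change of −1.40. The share called was 87.5%, against 71.3% of all tested genes (36% higher and 35.3% lower). The enzymes that make and load acetyl-CoA fell: Acly, which cleaves citrate, from 155, 159 and 154 CPM to 79.6, 65.3 and 64.8 CPM, and Acss2, which activates acetate, from 17.2, 14.6 and 19.2 CPM to 4.85, 3.67 and 3.31 CPM. Acaca, which encodes acetyl-CoA carboxylase and makes malonyl-CoA, fell from 49.3 ± 2.02 to 23.2 ± 1.40 CPM. Fasn, the synthase that builds palmitate, had 215, 208 and 199.6 CPM in shNC and 93.7, 59.7 and 74.3 CPM in shBmal1 (log2 fold change −1.45 ± 0.15, SE; adjusted p = 5.08e-05, edgeR). For these 4 genes the groups were separate. Summed over the 8 genes, the level was 98.5, 96.5 and 94.9 FPKM in shNC and 43.1, 31.4 and 39.1 FPKM in shBmal1, a 2.55-fold higher mean in shNC.

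Both desaturases that make polyunsaturated fatty acids fell. Fads1, the delta-5 desaturase (chromosome 1, 226234074 to 226249138, forward strand), had 35.4, 37.4 and 35.2 CPM in shNC and 7.00, 1.63 and 6.13 CPM in shBmal1 (log2 fold change −2.89 ± 0.40, SE; adjusted p = 0.000313, edgeR). The shNC libraries were tight, whereas the shBmal1 libraries, with 65, 20 and 74 counts, spread with a coefficient of variation of 58.6%. Fads2, the delta-6 desaturase, lies 81549 bases away on the other strand and fell from 29.7, 26.6 and 24.3 CPM to 6.57, 4.24 and 7.70 CPM (−2.12 ± 0.22). In both genes shBmal1 replicate 2 was the lowest library, and without it the log2 fold change of Fads1 was −2.49.

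Scd, the stearoyl-CoA desaturase that makes oleate, was the member of this arm that rose, from 4.78, 4.72 and 6.77 CPM to 13.3, 7.999 and 10.1 CPM (log2 change 0.94; adjusted p = 0.0123, edgeR). Its paralog Scd2, named after its values were seen, was more abundant per length in shNC (53.9 against 1.11 FPKM) and fell from 303, 281 and 303 CPM to 107.6, 67.3 and 70.04 CPM (−1.86), and reads shared between the copies could be split by the counting. Elovl6, which elongates palmitate, had 107, 76 and 69 counts in shNC and 0, 0 and 26 counts in shBmal1. Its call turned on 1 library: it did not pass with all libraries (adjusted p = 0.344, edgeR) and passed without shBmal1 replicate 3 (adjusted p = 0.00143, edgeR).

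**Figure D4:**
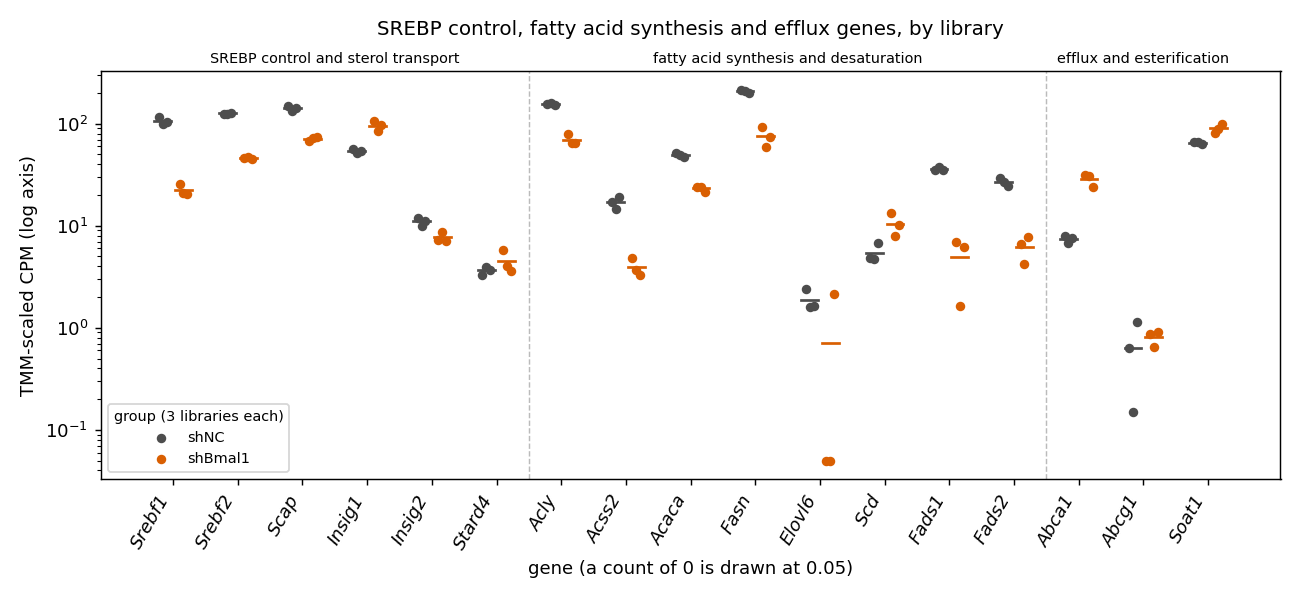
TMM-scaled CPM (log y axis) of the SREBP control, fatty acid synthesis and efflux genes (x axis), with 1 point per library and a line at the group mean, for 3 shNC and 3 shBmal1 libraries. A count of 0, as for Elovl6 in 2 shBmal1 libraries, is drawn at 0.05. Srebf1, Srebf2, Scap, Fasn, Fads1 and Fads2 are lower in every shBmal1 library, and Insig1, Abca1 and Soat1 higher.

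Of the 3 genes of efflux and esterification, 2 were higher and 1 was not called (66.7% called, against 71.3% of all tested genes). That did not hold for other ABC transporter genes in the wider list of lipid genes described below. There Abca7 and Abcg4 were lower, by 1.60 and 2.05 on the log2 scale, with Abcg4 at only 0 to 1.41 CPM in shBmal1. Abca1, which moves cholesterol onto lipid-poor apolipoproteins and is an LXR target, rose from 7.90, 6.84 and 7.60 CPM to 31.4, 30.7 and 23.9 CPM, with separate groups (log2 fold change 1.94 ± 0.15, SE; adjusted p = 1.09e-05, edgeR). Its E-box is printed above. Abcg1, the transporter that passes cholesterol to mature lipoproteins, had 0.628, 0.149 and 1.14 CPM in shNC and 0.862, 0.653 and 0.911 CPM in shBmal1, with overlapping groups and at most 48 counts in a library (adjusted p = 0.705, edgeR). Soat1, which esterifies cholesterol for storage, rose from 65.6, 66.0 and 63.7 CPM to 81.1, 89.6 and 100.01 CPM (log2 change 0.47). Nr1h3, which encodes the LXR subtype LXRα and was named after its values were seen, fell from 5.36, 5.84 and 6.36 CPM to 0, 1.31 and 0.828 CPM (adjusted p = 0.00542, edgeR). Nr1h2, which encodes the other LXR subtype and was likewise named after its values were seen, was more abundant per length in shNC (31.4 against 3.29 FPKM) and fell by 0.24 on the log2 scale, from 68.8 to 58.2 CPM (adjusted p = 0.0120, edgeR).

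Scaling sets how many of these genes count as higher. With FPKM rescaled to TPM, which gives each library the same total, the fold changes of genes with a mean of at least 10 CPM moved by a median of −0.37 on the log2 scale, and 5 of the 35 genes were higher and 20 lower. All 18 genes that fell kept their direction and call there. Of the 9 that rose, Mvd, Msmo1, Sc5d, Insig1 and Abca1 kept their call, and Idi1, Hsd17b7, Scd and Soat1 lost it at 0.30, 0.62, 0.43 and 0.09. Acat2 and Fdft1 came to −0.69 and −0.29 and passed as lower. The summed level of the mevalonate arm was 72.4 ± 2.14 and 91.6 ± 17.7 in FPKM but 175 ± 3.65 and 157 ± 25.6 in TPM, so its direction depended on the scaling, whereas the 18 sterol genes together were higher in shBmal1 on both scales (498 ± 10.5 and 610.5 ± 20.5 in TPM). In TPM that rise lay in Msmo1: without it the sum was 407 ± 11.1 in shNC and 314 ± 18.3 in shBmal1.

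**Figure D5:**
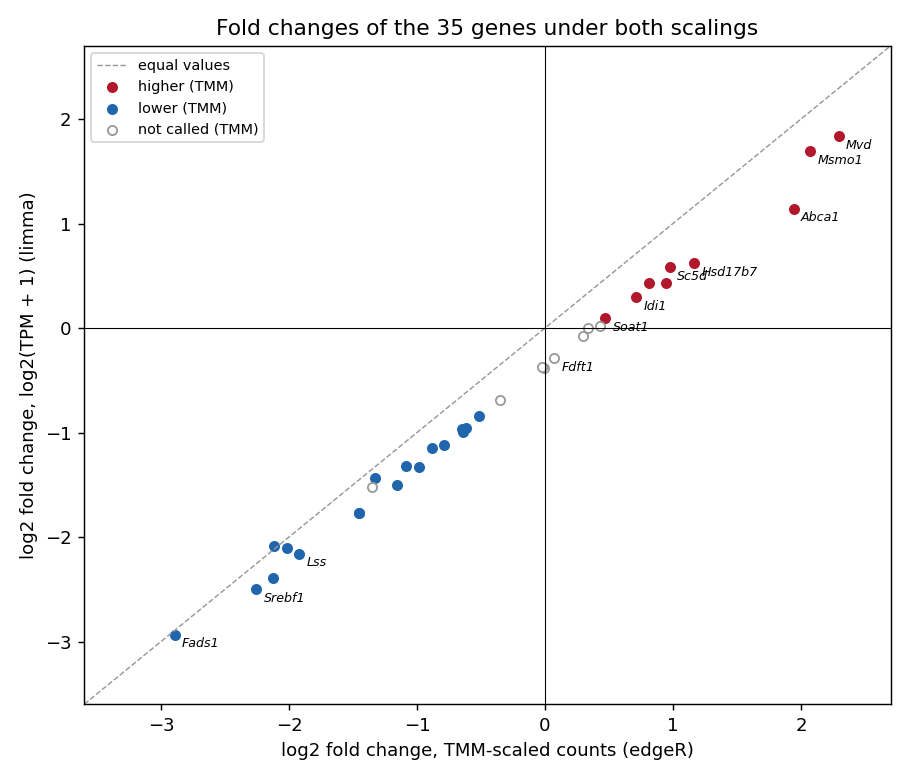
Log2 fold change of the 35 genes with TMM-scaled counts (x axis, edgeR) against log2(TPM + 1) (y axis, limma), with 1 point per gene and a dashed line where both are equal. Nearly all points lie below the line, and none of the 27 called genes changes sign.

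Other genes of lipid metabolism, from a list of 75 of which 70 were found and 60 tested, also moved both ways. Of the 60, 18 were higher, 29 lower and 13 not called (78.3% called, median log2 fold change −0.33). Over all tested genes 71.3% were called, with 36% higher and 35.3% lower, so a split in both directions is not particular to this list. Npc1, which exports cholesterol from lysosomes, rose from 61.2, 60.05 and 58.6 CPM to 323, 314 and 293 CPM (log2 change 2.37 ± 0.06, SE; adjusted p = 6.48e-08, edgeR). The acyl-CoA synthetase genes Acsl4, Acsl5 and Acsl3, which activate fatty acids, rose by 1.55, 1.21 and 1.11. Of the same family, Acsl1 did not pass (log2 fold change −0.34; adjusted p = 0.209, edgeR) and Acsl6 had no counts. Mbtps1, which encodes the Golgi protease S1P that first cuts the SREBPs, fell from 334, 342 and 321 CPM to 123, 118 and 114.5 CPM (−1.49 ± 0.06). Lipa, the lysosomal lipase that frees cholesterol from its esters, fell by 2.05, Abca7 by 1.60, and Slc25a1, the mitochondrial citrate carrier, by 1.52 on the log2 scale. The protease gene for the second cut, Mbtps2, had 32.4 ± 2.61 and 35.8 ± 1.92 CPM and did not pass. Among tested genes that the table assigns to KEGG terms, chosen after the values were seen, 6 of 17 for steroid biosynthesis were higher and 6 lower, and 6 of 21 for terpenoid backbone biosynthesis were higher and 11 lower. For fatty acid biosynthesis, a term that shares 2 genes with the 35, 3 of 8 were higher and 3 lower (median log2 fold change −0.15), a more even split than in the 8 fatty acid genes described above. For unsaturated fatty acids, 5 of 25 were higher and 12 lower. These counts stand beside the 36% higher and 35.3% lower of all tested genes, and no test was run over the terms.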

How the data were processed

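Polyadenylated RNA of 3 shNC and 3 shBmal1 libraries was sequenced as paired-end reads, per the labels' protocols, whose text also speaks of adipose tissue and of both RNA fractions. Tools listed, per the submitters' processing notes, are HISAT2 2.0.4, cutadapt 1.9, DESeq2, edgeR and StringTie 1.3.4d, without their roles. The sources used here do not give the build, the annotation or the counting program. The deposited table holds whole-number counts and FPKM per gene, per the file headers. The deposited FPKM of a gene without counts is 1e-04, read here as 0. Values of 4 were more frequent than values of 3 or 5 in every library (346 to 719 genes against 97 to 339), so 1 count may be less than 1 fragment, and a floor of 3 counts per library (0.0637 to 0.0712 CPM in shNC, 0.245 to 0.323 in shBmal1) covers counting error only. Value columns not tied to a sample numbered 0.

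Genes passing filterByExpr (minimum count 10, total 15) were scaled by TMM and tested with edgeR 4.0.16 (glmQLFit, glmQLFTest, R 4.3.3), without a replicate block. Folds are log2, and SE was derived from the F statistic. In simulated data, 62.9% of genes with a log2 change of 2 passed, 38.8% of those with 1 and 9.09% of those with 0.5. Of genes simulated without a change, 0.00724% passed. Far fewer genes were changed there than passed in these data, so those shares need not hold here. Libraries of a group differed by more than the sampling noise of counts taken as 1 fragment each (chi-square of 11.2 to 25.2 for each degree of freedom). As 1 count may be less than 1 fragment, that excess may be overstated. Differences between summed levels or ratios used an exact two-sided permutation test, which cannot go below 0.1. Alternatives used DESeq2 1.42.0, limma 3.58.1 on log2(TPM + 1) or log2(FPKM + 1), other filters, equal depth, a gene length offset and each library left out. All 35 members are named, and of the other list the 4 smallest p in each direction. Scd2, Nr1h3, Nr1h2, Mbtps2, Abcg4, Acsl1 and Acsl6 were added after their values were seen. Members and lists were chosen with earlier results of these data known. Protein sequences were not used here.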

Additional observations from a re-analysis of the deposited data

How the results depend on the processing

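Of 627 values of the 35 genes under 18 alternatives, 584 kept direction and side of the threshold, and 21 genes did so in every alternative run. Among all tested genes the number higher or lower stayed within 1.5 times under each alternative (5167 and 5066 in the fit reported), but the higher share of calls was 38.3% with log2(TPM + 1) and 39.0% with log2(TPM + 0.1) against 50.5%. With both TPM settings the numbers higher were 5 of the 35 genes and 10 of the other lipid genes, against 9 and 18. Leaving out each library in turn gave 9 to 10 higher and 16 to 18 lower of the 35. Genes near 0 changed sign, and the cause was not tested. Cyp51 came to 0.0550 with RLE scaling, 0.0330 with DESeq2, 0.0259 with a mean of at least 1 CPM, 0.1001 at equal depth, 0.0564 with counts divided by 4 (an alternative chosen after seeing the data), 0.0512 with protein-coding genes, 0.0383 with the length offset and 0.0866 with log2(FPKM + 1). Ebp came to 0.0388, 0.0152, 0.0121, 0.000237, 0.0264, 0.0343 and 0.0751 with RLE, DESeq2, 1 CPM, equal depth, division by 4, protein-coding genes and FPKM. With log2(TPM + 1) and log2(TPM + 0.1), Fdft1 came to −0.29 and −0.30 and Stard4 to −0.0760 and −0.10. With single libraries left out, Cyp51 ran from −0.15 to 0.10, Ebp from −0.14 to 0.11 and Abcg1 from −0.13 to 1.05. The replicate block gave 9 higher and 17 lower, losing Insig2 only. Deviations from the group mean correlated at −0.07, −0.00 and 0.02 between same-numbered libraries. With 3 libraries per group, these values cannot show whether same-numbered libraries share a culture or batch. Abcg1 had too few counts to be tested with a mean of at least 1 CPM, at equal depth or with counts divided by 4. Depth limits Abcg1, Acat2, Acss2, Dhcr7, Ebp, Elovl6, Fads1, Fads2, Mvk, Pmvk and Stard4, each under 100 counts in every shBmal1 library.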
